A study of Homo sapiens with 6 samples.

Results

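Retinoic acid synthesis, binding, reception and breakdown were followed through 9 genes, the retinaldehyde dehydrogenases ALDH1A1, ALDH1A2 and ALDH1A3, the cellular retinoic acid binding proteins CRABP1 and CRABP2, the receptors RARA, RARB and RARG, and the hydroxylase CYP26B1. They were picked by symbol from the 28395 genes of the count table, and all 9 were found by their NCBI gene identifiers. RNA-seq of polyadenylated RNA was compared between U251 cells (U251MG), an established human glioblastoma line, and the same line after CRISPR-Cas9 targeting of NUAK2, a serine/threonine kinase related to AMPK. The WT group had 3 libraries, and the NUAK2-CR group had 3. According to the study's methods, the knockout cells carried GFP and mCherry lentiviral CRISPR vectors with a guide to NUAK2 and were sorted and grown as clones, and no such vector is described for the WT cells of these libraries. The labels name no clone, and one supplementary legend names a single clone, CR-3, so all NUAK2-CR libraries may come from 1 clone. Effects of the targeting and of a clone's own history cannot be told apart, and p-values measure the spread between libraries, which may be technical. The methods name serum-containing medium and no added retinoid for these cells, and retinoid levels were not measured.

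Retinol is oxidised to retinaldehyde by retinol dehydrogenases such as RDH10, and the ALDH1A enzymes then oxidise retinaldehyde irreversibly to retinoic acid. CRABP proteins carry retinoic acid within the cell, CYP26 enzymes inactivate it, and RARs bound to DNA with an RXR partner turn target genes up or down according to ligand and coregulators. In the developing hindbrain this pathway patterns the neural tube, and retinoic acid is a differentiating agent for many neural and glial tumour cells in culture.

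Total counts ranged from 29648445 to 55574081 per library and were larger in every WT library than in any NUAK2-CR library. NUAK2 itself had 1654 ± 243 (SD, n = 3) normalized counts in WT, where counts are scaled to the average of the effective library sizes, and 869.5 ± 83.2 (SD, n = 3) after targeting, with a log2 fold change of -0.93 (SE 0.11, adjusted p = 1.8e-05 in edgeR's quasi-likelihood test). The 20 tested genes nearest to NUAK2 on its chromosome had a median log2 fold change of -0.82. All 8 astrocyte and glioma lineage markers were above the floor of 3 counts. Their summed CPM was 8939 to 9886 in WT and 4483 to 4579 in NUAK2-CR. CPM here are counts relative to the effective library size, the scaled total of tested genes. Marker sums of other cell types were far lower, at 29.8 to 30.0 CPM against 56.9 to 57.5 for neurons, 22.5 to 25.7 against 6.37 to 7.56 for leukocytes and microglia, 0.688 to 0.921 against 2.32 to 2.40 for endothelium and 0.412 to 0.659 against 0.322 to 0.609 for epithelium. Of the 8 glioma lineage markers 6 fell and 1 (CHI3L1) rose, while of the 5 neuron markers 2 rose, SNAP25 by far the most with a log2 fold change of 3.56. Of the 5 leukocyte markers 2 fell (CD68 and CSF1R), and 2 (AIF1 and CD3E) had no count in any library. Endothelial markers had 3 tested genes of 4, and 2 rose, PECAM1 (log2 fold change 4.53) and VWF (1.69), both scarce. The only epithelial marker tested, KRT5, was not called. Such calls (adjusted p under 0.05, edgeR) were common, as 26.3% of all tested genes were called higher and 28.2% lower. The part of these marker changes in the values of the retinoid genes was not tested. In such bulk samples, fewer cells that express a gene and less RNA per cell cannot be told apart.

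Receptors of the RAR family recognise direct repeats of a hexamer, and a repeat with 5 bases between its copies (DR5) is the best-known form. The 15 RefSeq promoters of the 9 genes (GRCh38.p14, from 250 bases before to 50 after each start site) were searched on both strands for 2 hexamers, each of them AGGTCA itself, the variant GGGTCA, the variant AGTTCA or the variant GGTTCA, in the same orientation and separated by 5 bases. Only 1 of the 15 held such a repeat. It was a RARB promoter, whose repeat on the gene's own strand at chr3:25428210-25428226 begins 53 bases before the start site. The same search in 44 of 54 further pathway genes matched in RefSeq found 1 more gene, CYP26A1, the other classical retinoic acid hydroxylase. Its repeat at chr10:93073803-93073819 reads on the strand opposite to the gene and lies 90 bases before the start site of that promoter. The listed gene begins further upstream, at 93073475, so this repeat lies inside the listed gene. Both repeats are shown, read 5′ to 3′ on the strand of the repeat (the gene's own strand for RARB and the opposite strand for CYP26A1), because they are the receptor-type elements of these promoters that the counts of a named gene can be set beside, and capitals mark the hexamers with their spacer.
RARB: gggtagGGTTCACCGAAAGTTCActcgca
CYP26A1: acaattAGTTCACCCAAAGTTCAtcttta
Of 35116 promoters of this length, 31 (0.0883%) held a DR5 of this kind, and 14 (0.0399%) held the form with 2 bases between hexamers (DR2), none of them in the genes searched here. A match describes letters and not a bound site, and gene counts do not tell apart the start sites of RARB or of CYP26A1. Of the 29 genes with a DR5, 10 were tested, 4 of which were called lower by edgeR at an adjusted p under 0.05, a call that 28.2% of all 14873 tested genes shared, and the others not called, with a median log2 fold change of -0.11. Of the 14 genes with a DR2, 4 were tested and 1 was called higher (26.3% of all tested genes), with a median of 0.05.

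In NUAK2-CR cells the retinoic acid producing enzyme ALDH1A3 rose 2.36-fold, and the carriers CRABP1 and CRABP2 and the hydroxylase CYP26B1 fell. Among the receptors RARA and RARB fell and RARG rose. Of the 9 genes, 7 passed edgeR's filter on low counts, and all 7 had an adjusted p under 0.05, 2 higher and 5 lower. That threshold was passed by 54.5% of the 14873 genes tested, 26.3% higher and 28.2% lower, so a call by itself did not set a gene apart in this comparison. The libraries of WT and NUAK2-CR did not overlap for all 7, as for 61.4% of the tested genes. The median log2 fold change was -0.58 over the 7, against -0.01 over all tested genes. None was a DEG in edgeR by the study's thresholds (adjusted p under 0.05 and absolute log2 fold change over 2), a class that held 4.72% of tested genes, although all 7 had an unadjusted p under 0.05. DESeq2, which also tested ALDH1A1, gave 1 DEG among the members.

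**Figure D1:**
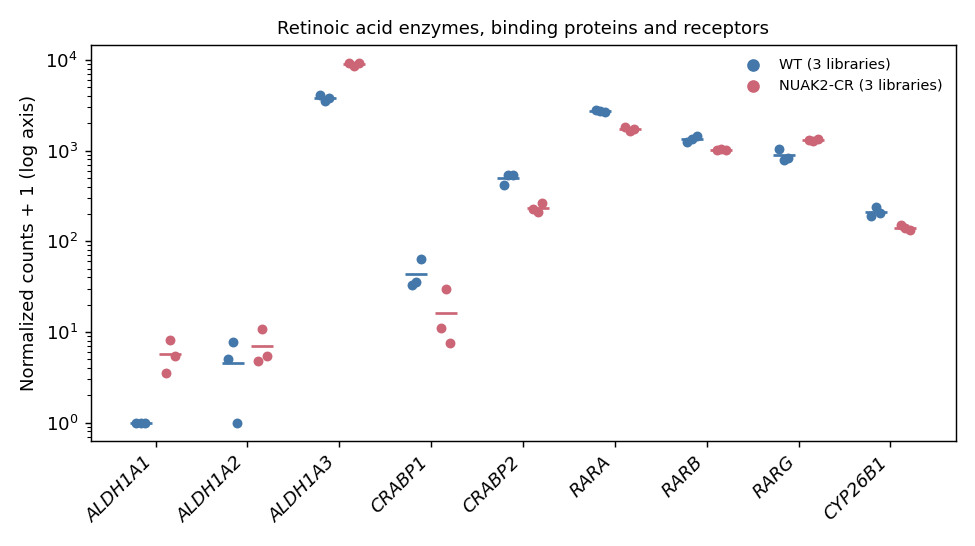
Normalized counts (plus 1, log axis) of the 9 genes in each of 3 WT and 3 NUAK2-CR libraries, with bars at the group means. ALDH1A3 and RARG sit higher in every NUAK2-CR library, CRABP1, CRABP2, RARA, RARB and CYP26B1 sit lower, and ALDH1A1 and ALDH1A2 lie at or near 0.

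ALDH1A3 (NCBI gene 220, chr15:100879831-100916626, plus strand, GRCh38), the retinaldehyde dehydrogenase often reported in mesenchymal-type glioma cells, was nearly the whole of the ALDH1A family here. WT replicates 1, 2 and 3 held 4141, 3573 and 3789 normalized counts of it, against 9258, 8576 and 9354 for the NUAK2-CR replicates in the same order. Every NUAK2-CR library lay above every WT library, and the gap between the groups was far wider than the spread within either. The mean was 3834 ± 287 (SD, n = 3) before and 9062 ± 424 (SD, n = 3) after targeting, with a log2 fold change of 1.24 (SE 0.07, adjusted p = 4.74e-08, edgeR). Without any 1 library the log2 fold change stayed between 1.19 and 1.31. The 20 nearest tested genes had a median of -0.12, opposite in sign to ALDH1A3 itself. An antisense gene, ALDH1A3-AS1, overlaps 24284 bases of the locus, introns included. Because featureCounts does not use strand at its default settings, which the methods name, strand could not separate its reads from those of ALDH1A3. How much exon sequence the genes share was not examined. Shorter opposite-strand genes of GENCODE also overlap CRABP1, CRABP2, RARA, RARB and CYP26B1, by 64 to 5152 bases each. The same limit holds for them, and the annotation used for counting is not known to include them.

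The other 2 retinaldehyde dehydrogenases were close to undetected. ALDH1A1 (gene 216, chr9:72900671-72953053, minus strand), a widely used marker of stem-like tumour cells, had 0 counts in each WT library, whereas NUAK2-CR replicates 1, 2 and 3 had 2, 6 and 4. Its mean of 4.72 ± 2.37 (SD, n = 3) normalized counts in NUAK2-CR was 1.75 times the floor of 3 counts per WT library. The difference from WT was thus at least 1.75-fold. With 2 counts, NUAK2-CR replicate 1 was itself under the floor of 3, and ALDH1A1 did not pass the filter. Fits that kept it gave adjusted p-values of 0.0314 in DESeq2 and 0.0275 in edgeR with no filter beyond 1 count. ALDH1A2 (gene 8854, chr15:57953429-58065711, minus strand), the main source of retinoic acid in the embryo, had 6, 7 and 0 counts in WT, next to 3, 8 and 4 in NUAK2-CR. These ranges overlapped, and no difference was detectable at this depth. Per length of transcript, ALDH1A3 made up 99.9 ± 0.097% (SD, n = 3) of the summed ALDH1A level in WT and 99.8 ± 0.087% in NUAK2-CR (p = 0.5, exact permutation test, two-sided).

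CRABP2 (gene 1382, chr1:156699606-156705784, minus strand) delivers retinoic acid to nuclear receptors. It reached 412.5, 532.5 and 538.5 normalized counts in the WT libraries but 226, 211 and 267 in the NUAK2-CR ones. The highest NUAK2-CR library was well below the lowest WT library. The mean went from 494.5 ± 71.1 to 234.6 ± 28.8 (SD, n = 3 each), and CRABP2 fell with a log2 fold change of -1.07 (SE 0.15, adjusted p = 5.59e-05, edgeR). The value was -1.18 to -0.999 when any 1 library was left out, and the median of the 20 nearest tested genes was -0.46.

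CRABP1 (gene 1381, chr15:78340353-78348225, plus strand), the carrier more often linked to storage and turnover of retinoic acid, was much scarcer and less certain. The raw counts behind it were 48, 36 and 58 in WT, compared with 8, 24 and 6 in NUAK2-CR. It passed the filter through its WT libraries, since only 1 NUAK2-CR library exceeded the filter's 0.289 CPM. That limit, unlike the other CPM values, is relative to the library total. After scaling, WT replicates 1, 2 and 3 had 31.9, 34.7 and 62.4 normalized counts and NUAK2-CR replicates 10.2, 28.9 and 6.59. WT replicate 3 stood high and NUAK2-CR replicate 2 came close to the WT range without entering it. The log2 fold change was -1.48 (SE 0.51, adjusted p = 0.0265, edgeR). The call was lost without NUAK2-CR replicate 1 (-1.26, adjusted p = 0.0935, edgeR), NUAK2-CR replicate 3 (-1.11, adjusted p = 0.0991) or WT replicate 3 (-1.13, adjusted p = 0.120), whereas without NUAK2-CR replicate 2 the value was -2.34 (adjusted p = 0.0042) and CRABP1 became a DEG. Of the summed level of both carriers per length, CRABP2 made up 89.9 ± 2.77% (SD, n = 3) in WT and 92.0 ± 6.44% in NUAK2-CR (p = 0.6, exact permutation test). Single libraries spread over 86.8 to 92.1% in WT and 84.7 to 96.8% in NUAK2-CR, so the groups overlapped.

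RARA (gene 5914, chr17:40309180-40357643, plus strand), the most broadly expressed of the receptors, had 2788, 2724 and 2659 normalized counts in WT, compared with 1822, 1643 and 1747 in NUAK2-CR. Libraries within each group were close together, and the groups were well apart. RARA fell from a mean of 2724 ± 64.2 to 1737 ± 90.2 (SD, n = 3 each), a log2 fold change of -0.65 (SE 0.07, adjusted p = 6.51e-06, edgeR). The 20 nearest tested genes on chromosome 17 had a median of -0.56, close to the value of RARA itself. Its antisense gene RARA-AS1 overlaps 2270 bases of it.

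RARB (gene 5915, chr3:24829321-25597932, plus strand), which carries the DR5 printed above and is itself a textbook target of retinoic acid, had 1245, 1346 and 1439 normalized counts in WT, compared with 1006, 1029 and 1009 in NUAK2-CR. The NUAK2-CR libraries were nearly equal and all lay below the WT range. RARB fell from 1343 ± 97.3 to 1014 ± 12.5 (SD, n = 3 each), the smallest of the 7 log2 fold changes at -0.40 (SE 0.08, adjusted p = 0.00111, edgeR). The median of its 20 nearest tested genes was -0.01.

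RARG (gene 5916, chr12:53210569-53232209, minus strand), the receptor best known from epidermis and skeleton, moved the other way. It had 1053, 787 and 836 normalized counts in WT, where replicate 1 stood above the others, and 1293, 1288 and 1356 in NUAK2-CR. All NUAK2-CR libraries exceeded all WT libraries. The mean rose from 892 ± 141 to 1312 ± 37.9 (SD, n = 3 each), a log2 fold change of 0.55 (SE 0.11, adjusted p = 0.000779, edgeR), which ranged from 0.47 to 0.70 with each library left out. Its 20 nearest tested genes had a median of 0.30.

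Because the receptors differ in transcript length, their levels were compared as CPM per kb of the MANE Select transcript. On that scale the 3 receptors together had a level of 42.9, 40.8 and 41.6 in WT and 35.2, 33.9 and 35.2 in NUAK2-CR. RARA made up 52.9, 54.3 and 52.1% of this sum in WT and 42.1, 39.4 and 40.4% in NUAK2-CR. The RARA share was thus lower in every NUAK2-CR library, by 12.5 percentage points in the mean. The RARG share was 22.4, 17.6 and 18.4% in WT and 33.6, 34.7 and 35.2% in NUAK2-CR, 15.0 points higher in the mean with no overlap. RARB, at 24.7, 28.1 and 29.5% in WT and 24.3, 25.8 and 24.4% in NUAK2-CR, overlapped between groups. Exact two-sided permutation tests gave p = 0.1 for RARA, p = 0.1 for RARG and p = 0.2 for RARB, with 0.1 the smallest that 3 libraries against 3 can give. RARG stood at 0.367 ± 0.0513 (SD, n = 3) of the RARA level per length in WT and at 0.850 ± 0.0461 in NUAK2-CR (p = 0.1, exact permutation test). RARG was higher and RARA and RARB lower in every NUAK2-CR library, so the RARG share and this ratio had to separate the groups. Their permutation p-values therefore add nothing to the calls of the single genes.

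**Figure D2:**
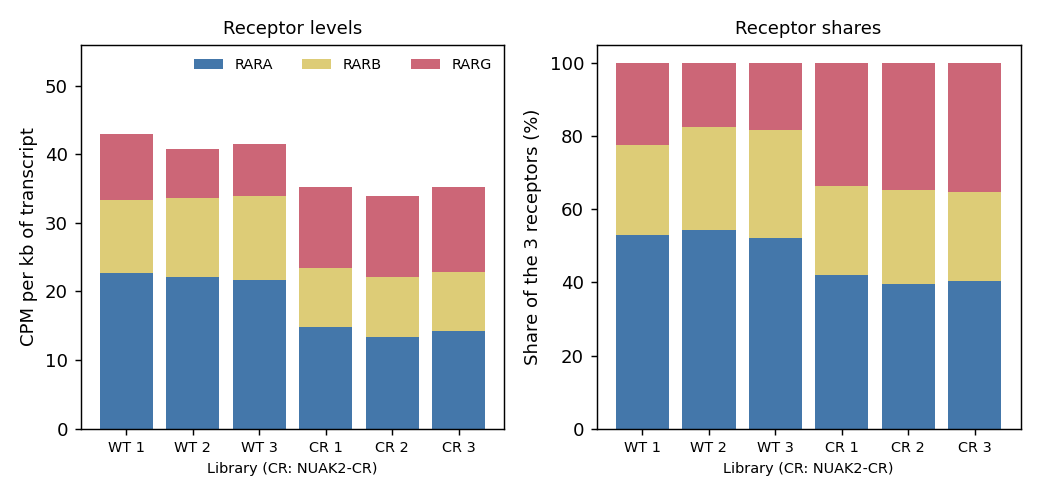
Levels of RARA, RARB and RARG in CPM per kb of transcript and their shares of the summed receptor level in percent, for each of the 3 WT and 3 NUAK2-CR libraries. RARA goes from 53.1 to 40.7% of the sum in the mean and RARG from 19.5 to 34.5%, while the RARB shares of the groups overlap.

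CYP26B1 (gene 56603, chr2:72129238-72147862, minus strand), which hydroxylates retinoic acid and so ends its action, had 190.6, 236 and 204 normalized counts in WT, compared with 151, 137.5 and 133 in NUAK2-CR. All NUAK2-CR libraries were below all WT libraries. CYP26B1 fell from 210.4 ± 23.5 to 140.5 ± 9.49 (SD, n = 3 each), a log2 fold change of -0.58 (SE 0.16, adjusted p = 0.00953, edgeR), and the value stayed between -0.64 and -0.49 with each library left out. Set against ALDH1A3 per length of transcript, the enzyme that makes retinoic acid had 28.5, 19.9 and 24.4 times the level of CYP26B1 in WT and 80.5, 81.9 and 92.5 times in NUAK2-CR. This ratio of transcript levels was 3.50-fold higher in NUAK2-CR in the mean (p = 0.1, exact permutation test), and enzyme activity was not measured. Since ALDH1A3 was higher and CYP26B1 lower in every NUAK2-CR library, the ratio had to separate the groups. Its p therefore adds nothing to the calls of either gene.

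**Figure D3:**
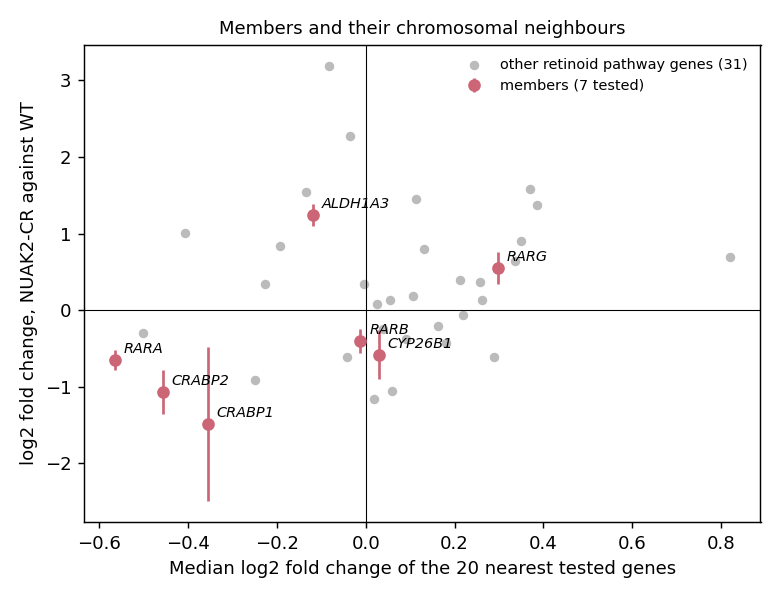
The log2 fold change of each tested member (NUAK2-CR against WT) beside the median of the 20 tested genes nearest to it on its chromosome, with bars for 95% intervals and grey points for 31 other tested pathway genes. RARA lies close to its neighbours' median of -0.56, while ALDH1A3 stands at 1.24 against -0.12.

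Ordered by level per length, WT cells had ALDH1A3 at 29.5 ± 2.20, RARA at 22.2 ± 0.523, CRABP2 at 13.5 ± 1.95, RARB at 11.4 ± 0.828, RARG at 8.15 ± 1.29, CRABP1 at 1.55 ± 0.608 and CYP26B1 at 1.23 ± 0.137 CPM per kb (SD, n = 3 each). CRABP2 and RARB overlapped across WT libraries, as did CRABP1 and CYP26B1. In NUAK2-CR the order was ALDH1A3 at 69.7 ± 3.26, RARA at 14.1 ± 0.734, RARG at 11.99 ± 0.346, RARB at 8.64 ± 0.106, CRABP2 at 6.42 ± 0.789, CYP26B1 at 0.822 ± 0.0556 and CRABP1 at 0.550 ± 0.434. RARG had passed RARB and CRABP2 in that order, and again CRABP1 and CYP26B1 overlapped. Among tested genes with a length, ALDH1A3 went from the 80.8 to the 93.2 percentile of level, and CRABP2 from the 63.4 to the 44.6 percentile.

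The rest of the pathway was read from a list of 54 genes, of which 32 were tested and 22 were too low, 9 of them with no count in any library. In edgeR 16 rose, 9 fell and 7 did not pass an adjusted p of 0.05, and the median log2 fold change of the 32 was 0.26. Over all tested genes 26.3% were called higher and 28.2% lower. Their DEGs were BCO1 and RARRES2, which rose, and RBP4, which fell. BCO1 passed the filter through its NUAK2-CR libraries alone and RBP4 through its WT libraries alone, and neither could be tested when 10 counts were required in every library. Of the 32, 24 had groups that did not overlap, which 61.4% of all tested genes also showed. RDH13, a retinol dehydrogenase counted among the 9 with no count, is uncertain, since 11 (55.0%) of its 20 nearest protein-coding genes were under 10 counts in every library, against 26.0% of all such genes.

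**Figure D4:**
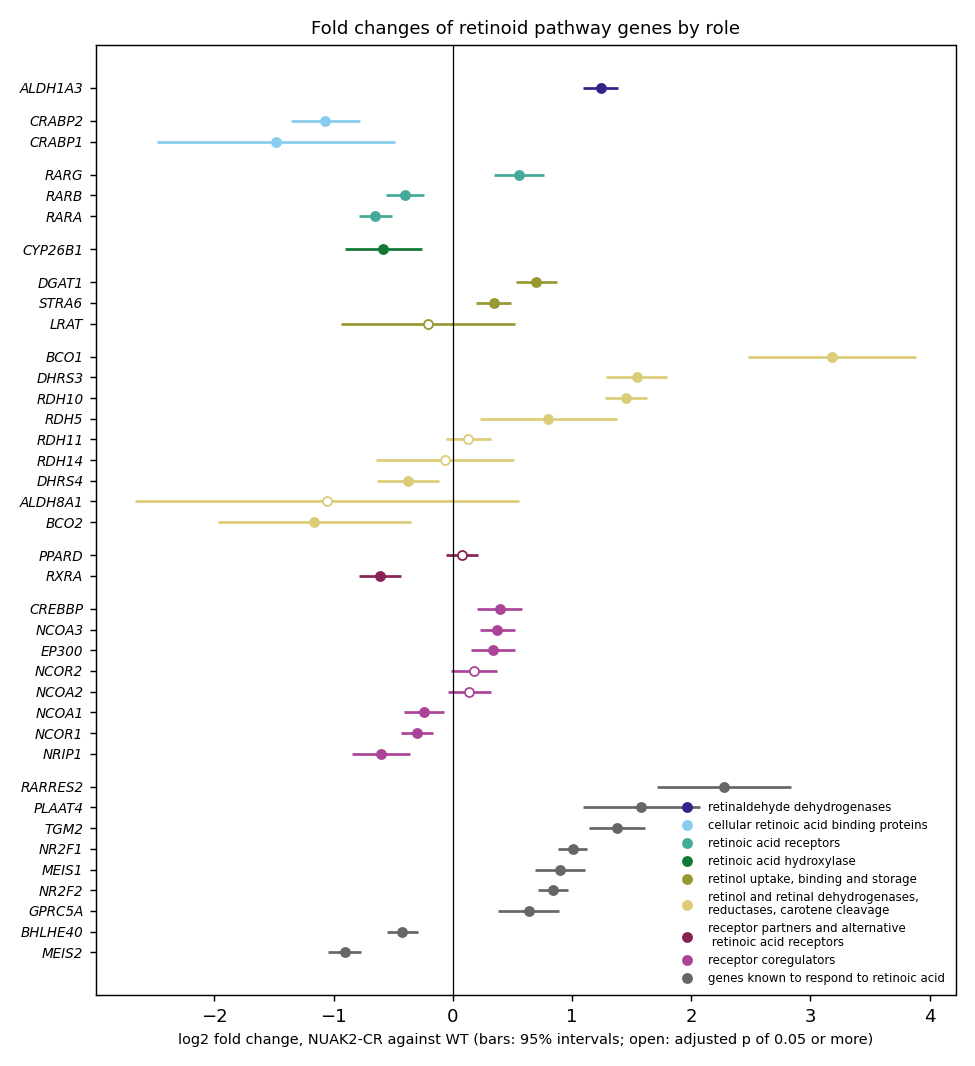
The log2 fold changes (NUAK2-CR against WT, edgeR) of members and other tested pathway genes by role, with bars for 95% intervals and open points for an adjusted p of 0.05 or more. RBP4 is not drawn because all its NUAK2-CR counts were 0. ALDH1A3 lies near DHRS3 and RDH10 above 1, and the CRABP genes lie below -1.

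Among enzymes that act upstream of ALDH1A3, RDH10, DHRS3 and BCO1 rose. RDH10, the main retinol dehydrogenase of the embryo, had 523, 585 and 613 normalized counts in WT, compared with 1477, 1651 and 1574 in NUAK2-CR. It rose with a log2 fold change of 1.45 (SE 0.09, adjusted p = 5.96e-08, edgeR). DHRS3 reduces retinaldehyde back to retinol, and so works against RDH10. It had 1382, 2177 and 1996 normalized counts in WT, compared with 5262, 5384 and 5509 in NUAK2-CR, so that its log2 fold change was 1.54 (SE 0.13, adjusted p = 9.27e-07). Both genes were higher in every NUAK2-CR library than in any WT library. BCO1, which cleaves beta-carotene to retinaldehyde, rose from 6.94 ± 0.683 to 64.0 ± 7.29 normalized counts (log2 fold change 3.18, SE 0.36, adjusted p = 1.12e-05), from only 10, 8 and 6 counts in WT, none over the filter's 0.289 CPM, and BCO2, the other carotene oxygenase, had the lowest value of these enzymes at -1.16 (adjusted p = 0.0315, but 0.0586 in DESeq2). In the whole group of retinol and retinal dehydrogenases, reductases and carotene-cleaving enzymes, 4 of 9 tested genes rose, 2 fell and 3 did not pass. That group is wider than the enzymes upstream of ALDH1A3. Over all tested genes 26.3% were called higher and 28.2% lower. The remaining calls, RDH5 (0.80, adjusted p = 0.0353, edgeR) and DHRS4 (-0.38, adjusted p = 0.0307), are named after their values were seen. RDH5 was not called in DESeq2 (adjusted p = 0.0719). DHRS4 was not called without NUAK2-CR replicate 2 (adjusted p = 0.129, edgeR).

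Among genes of uptake and storage, 4 of 6 were tested, 2 rose and 1 fell, beside 26.3% higher and 28.2% lower over all tested genes. STRA6, the membrane receptor for retinol bound to RBP4, rose from 2432 ± 66.8 to 3084 ± 244 normalized counts (log2 fold change 0.34, adjusted p = 0.0018, edgeR). DGAT1, an acyltransferase that can esterify retinol, rose by 0.70 on the log2 scale (adjusted p = 2.69e-05), with a median of 0.82 in its 20 nearest tested genes. RBP4, the retinol carrier of plasma, had 38, 25 and 26 counts in WT but 0 in each NUAK2-CR library, so it was at least 7.21-fold lower. FABP5, a fatty acid binding protein that can carry retinoic acid, had 4 counts in 1 WT library and 0 in the others.

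The receptor partners had 2 tested genes of 4. RXRA, the main partner of the RARs, had 3149, 2458 and 2702 normalized counts in WT, compared with 1825, 1880 and 1739 in NUAK2-CR. It fell without overlap, with a log2 fold change of -0.61 (SE 0.09, adjusted p = 9.86e-05, edgeR), beside -0.65 for RARA. PPARD, a nuclear receptor proposed to answer to retinoic acid, had a log2 fold change of 0.07 (adjusted p = 0.384). RXRB was listed at 1 to 5 counts per library. Of the 20 protein-coding genes nearest to RXRB, 14 (70.0%) were also under 10 counts in every library, against 26.0% of all 19175, so its listing is reported as uncertain. FABP5, at 6 (30.0%) low neighbours of 20, was near that background. Its count is also uncertain, since closely similar copies of it lie elsewhere in the genome and their part in the count was not tested. Of 8 coregulators, 3 rose and 3 fell, where 26.3% of all tested genes were called higher and 28.2% lower. Their values ran from 0.40 for the acetyltransferase CREBBP (adjusted p = 0.00397, edgeR) to -0.60 for NRIP1, a ligand-dependent corepressor (adjusted p = 0.00131).

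Of 14 genes known from other systems to respond to retinoic acid, 9 were tested, 7 of which rose and 2 fell in edgeR, with no overlap between groups for any of the 9 and a median log2 fold change of 0.90. Over all tested genes 26.3% were called higher, 28.2% lower and 61.4% had groups that did not overlap. Not counted in this list is RARB, a member described above as a textbook target of retinoic acid, which fell (log2 fold change -0.40, edgeR). The other members and the pathway genes of other roles were not sorted by response to retinoic acid, and they moved in both directions. The 7 that rose and 2 that fell thus describe this list only. TGM2, a transglutaminase, had 7427, 5072 and 5513 normalized counts in WT, compared with 15280, 16550 and 14950 in NUAK2-CR. The log2 fold change was 1.38 (SE 0.12, adjusted p = 1.12e-06), next to 1.24 for ALDH1A3. RARRES2, which encodes the chemoattractant chemerin, rose from 24.6 ± 6.30 to 120.0 ± 24.8 (SD, n = 3 each; log2 fold change 2.28, SE 0.29, adjusted p = 2.83e-05). At the other end MEIS2, a homeobox factor, fell from 2753 ± 123 to 1469 ± 57.1 (SD, n = 3 each), a log2 fold change of -0.91 (adjusted p = 4.22e-07). The remaining tested genes are named after their values were seen. PLAAT4 (1.58), NR2F1 (1.00), MEIS1 (0.90), NR2F2 (0.84) and GPRC5A (0.64) rose on the log2 scale, and BHLHE40 (-0.42) fell. MEIS1 and MEIS2, which are closely related, thus had log2 fold changes of opposite sign. RARRES1 and CYP26A1 were not tested: RARRES1 had 3, 4 and 2 counts in WT, next to 12, 4 and 4 in NUAK2-CR, and CYP26A1, whose DR5 is printed above, had 4, 8 and 2 in WT and 0, 1 and 2 in NUAK2-CR.

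**Figure D5:**
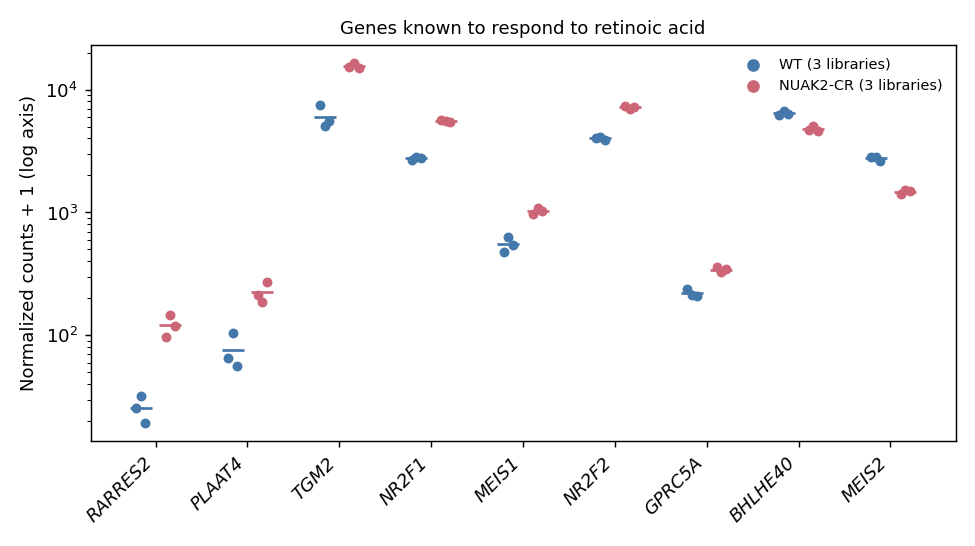
Normalized counts (plus 1, log axis) of the 9 tested genes known to respond to retinoic acid in each of 3 WT and 3 NUAK2-CR libraries, with bars at the group means. The groups do not overlap for any of the 9, and RARRES2, PLAAT4, TGM2, NR2F1, MEIS1, NR2F2 and GPRC5A are the 7 that lie higher in NUAK2-CR.

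The genes whose profile over the 6 libraries lay closest to that of ALDH1A3, by Euclidean distance of mean-centred log2 CPM, were ZFP41 (distance 0.0998), ALDH1B1 (0.11), EHD3 (0.151), MACROH2A2 (0.158) and PRXL2A (0.165). The 6 libraries fall into the WT and NUAK2-CR groups, and any gene with a log2 fold change near that of ALDH1A3 and little spread within groups lies close on this measure. ALDH1B1, a mitochondrial aldehyde dehydrogenase, had a mean of 2037 normalized counts in WT, compared with 4906 in NUAK2-CR, a log2 difference of 1.27.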

How the data were processed

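RNA-seq counts of 6 U251 libraries (3 WT, 3 NUAK2-CR) were used, grouped by the genotype in the sample labels. The deposited values are raw counts per gene without normalization, which the authors obtained with featureCounts from reads trimmed by Trimmomatic and mapped by HISAT2 on hg38. Default parameters were stated, at which featureCounts does not use strand, and the annotation is not given in the sources used here. Symbols came from RefSeq (27745 of 28395 identifiers matched), lengths from MANE Select transcripts of GENCODE. In R 4.3.3, edgeR 4.0.16 (filterByExpr, TMM, glmQLFit, quasi-likelihood F test, prior count 0.125) tested 14873 genes with Benjamini-Hochberg adjustment, and the code was tested on simulated data. The study's main tool, DESeq2 (1.42.0), was an alternative, with other filters and scalings, a prior count of 2, a replicate block, and each library left out. Shares and ratios were tested by exact permutation with scipy 1.17.1. The floor was fixed at 3 counts in every library, so its normalized value varied with library totals of 29648445 to 55574081 counts. Floors cover counting error only. Neighbours are the 20 nearest tested genes. Log2 CPM profiles used a pseudocount of 0.5.

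The members, the lists of pathway genes and markers, and the tests were chosen with earlier results of these data known. Genes named are all members and NUAK2, a fixed set of pathway genes, other pathway DEGs, the highest and lowest tested gene of each role, and the 5 genes closest in profile to the tested member with the largest change whose mean reached 100 normalized counts in 1 group or more. Some genes of the pathway lists are not reported here, and the counts leave them out.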

Additional observations from a re-analysis of the deposited data

How the results depend on the processing

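Over the 13 alternative fits, the 7 tested members kept their direction in each fit that tested them, and 3 values of CRABP1, given with it, lost the call. CRABP1 was not tested where at least 10 counts were required in every library, which left 4 members called lower. DESeq2, no filter beyond 1 count (ALDH1A1 in each) and leaving out NUAK2-CR replicate 2 (CRABP1) gave 1 DEG among the members in place of 0. Requiring at least 10 counts in every library reduced all DEGs from 702 to 339 and those of the other pathway genes from 3 to 1, as fewer genes were tested. With 1 library left out, 4 to 5 members were called lower, 15 to 17 pathway genes higher and 6 to 9 lower, and the difference in the CRABP2 share ran from -0.317 (without NUAK2-CR replicate 3, a reversal) to 5.77 percentage points around 2.12. The log2 fold changes of RDH14 (-0.22 to 0.0763, above 0 without NUAK2-CR replicate 2 or WT replicate 3) and LRAT (-0.605 to 0.037, above 0 without NUAK2-CR replicate 3), neither of them called, also reversed, and the cause was not tested. Of the calls named in the text, BCO2 was lost in DESeq2 (-1.16, adjusted p = 0.0586) and when replicate 2 of WT, or replicate 2 or 3 of NUAK2-CR, was left out. RDH5 lost its call in DESeq2, with a replicate block, and when any library except WT replicate 1 was left out. DHRS4 lost its call without replicate 1 or 2 of NUAK2-CR and without replicate 2 or 3 of WT. Dividing counts by the length of all exons together was added after seeing the data. With TMM, RLE and library-total scaling and with DESeq2, the median of all genes lay between -0.03 and -0.00126. Replicate numbers did not pair the samples, since deviations of same-numbered libraries correlated at 0.043, -0.035 and 0.048. A replicate block left 2 members called higher and 5 lower, and 3972 genes higher and 4195 lower in all; the pathway genes called were 15 higher and 9 lower. Counts of a few reads limit ALDH1A1, ALDH1A2 and CRABP1.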
